A study of Homo sapiens with 12 samples.

Results

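The prostate kallikreins described here are KLK3, KLK2, KLK4, KLK15 and the kallikrein pseudogene KLKP1, 5 of the 34643 gene symbols in the table. They were picked by symbol with their levels in these libraries known: KLK2, KLK3 and KLK4 because they were lower in the cells with the TMEFF2 shRNA even without androgen, and KLK15 after its own value had been seen. Their levels are therefore given as a description, without p-values. The cells were LNCaP, an androgen-responsive human prostate cancer line, in 4 groups of 3 RNA-seq libraries. All cells had been transduced with lentivirus made from pLKO.1-puro, in which the U6 promoter drives the shRNA, and selected in puromycin for 1 week. The groups shScramble DHT- and shScramble DHT+ carried a scrambled control shRNA, and the groups shTMEFF2 DHT- and shTMEFF2 DHT+ carried an shRNA against TMEFF2, a transmembrane protein with EGF-like and follistatin-like domains that is itself androgen regulated. About 2.5 weeks after transduction (17 days in the series' design) every flask spent 24 h in medium with charcoal-stripped serum, followed by 24 h with either the androgen dihydrotestosterone at 10 nM (DHT+) or its ethanol vehicle (DHT-). The 3 repeats of a group were separate treatments and extractions that came from 2 transductions, and the labels do not say which came from which. The cells were a transduced pool of a single established line, and which of the study's TMEFF2 shRNAs the sequenced cells carried is not given in the sources used here.

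Kallikreins are secreted serine proteases encoded side by side in a large gene cluster. In the prostate, luminal cells secrete KLK3 (prostate-specific antigen, PSA) and KLK2 into seminal fluid, where KLK2 can activate pro-KLK3 and KLK3 cleaves the semenogelins that hold the coagulum together. KLK4 and KLK15 are further trypsin-like members that can activate other kallikreins, and KLKP1 is transcribed but lacks the full protease reading frame. Transcription of KLK2 and KLK3 is a textbook target of androgen, through androgen response elements in their promoters and in a distal enhancer of KLK3, and serum PSA is used to follow prostate cancer in patients.

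All 5 genes lie within 86.1 kb of chromosome 19 in GENCODE v44 on GRCh38. From left to right they are KLK15 at chr19:50825289-50837213 on the minus strand, KLK3 at chr19:50854915-50860764 on the plus strand, KLK2 at chr19:50861568-50880567 on the plus strand, KLKP1 at chr19:50882096-50896398 on the minus strand and KLK4 at chr19:50906351-50911395 on the minus strand. The annotated spans of KLK3 and KLK2 are 0.8 kb apart, whereas 17.7 kb separate that of KLK15 from that of KLK3. KLK15 is overlapped on the other strand by ENSG00000267968, and since strand-specific counting is not given in the sources used here, reads of both cannot be told apart. The coding sequences of KLK2 and KLK3 are 85.3% identical (668 of 783 aligned bases), compared with 61.9% to 64.0% for the other pairs of protein-coding members. KLK2 and KLK3 share 56 words of 31 bases, which are 2.0% of the words of the canonical KLK2 transcript and 3.9% of those of KLK3, and no other pair shares any. A small part of the reads could therefore have been split between KLK2 and KLK3 by the estimation of counts.

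The promoters are shown because the androgen response of the members differed and because KLK2 and KLK3 carry a match to an androgen response element. The sequences are the 250 bases before the start site of each gene in RefSeq (GRCh38.p14), read 5′ to 3′ on the strand of the gene: chr19:50854665-50854914 (plus), chr19:50873189-50873438 (plus), chr19:50833575-50833824 (minus) and chr19:50911396-50911645 (minus). The start is that of the canonical transcript. For KLK2 (50873439) and KLK15 (50833574) it lies inside the annotated span of the gene given above, not at its edge. Capitals mark a match to the 15-base androgen response element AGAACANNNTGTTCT with at most 3 mismatches at its 12 fixed bases, and the letters TATAAA of the TATA box on either strand.
KLK3: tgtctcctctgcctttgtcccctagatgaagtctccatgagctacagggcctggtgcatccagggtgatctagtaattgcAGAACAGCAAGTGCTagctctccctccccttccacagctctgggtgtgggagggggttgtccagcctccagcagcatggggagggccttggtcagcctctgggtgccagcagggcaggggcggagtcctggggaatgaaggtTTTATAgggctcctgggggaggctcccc
KLK2: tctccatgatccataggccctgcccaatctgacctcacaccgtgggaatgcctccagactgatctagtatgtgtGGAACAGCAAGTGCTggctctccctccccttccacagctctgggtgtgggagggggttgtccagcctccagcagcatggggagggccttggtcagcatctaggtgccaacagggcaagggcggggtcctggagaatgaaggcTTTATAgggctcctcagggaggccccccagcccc
KLK15: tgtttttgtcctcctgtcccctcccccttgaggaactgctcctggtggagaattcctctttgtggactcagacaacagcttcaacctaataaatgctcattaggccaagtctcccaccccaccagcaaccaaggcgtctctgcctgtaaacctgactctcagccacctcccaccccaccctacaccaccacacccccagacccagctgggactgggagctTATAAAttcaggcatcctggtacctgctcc
KLK4: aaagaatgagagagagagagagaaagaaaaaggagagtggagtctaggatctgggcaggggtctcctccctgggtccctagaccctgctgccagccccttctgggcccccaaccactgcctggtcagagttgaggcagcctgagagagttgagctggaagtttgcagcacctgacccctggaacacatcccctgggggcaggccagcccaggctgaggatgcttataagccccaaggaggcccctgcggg

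In the KLK3 promoter, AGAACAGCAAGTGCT stands 170 to 156 bases before the start with 2 mismatches, counting the base before the start as 1. In KLK2, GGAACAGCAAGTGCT stands 176 to 162 bases before the start with 3 mismatches. Of 34943 RefSeq promoter windows searched in the same way, 9.18% held a match with at most 3 mismatches and 1.19% a match with at most 2. The left arm of the element alone, AGAACA, was found only in KLK3 among the members, inside this match, and in 12.4% of all windows. TATAAA was present in KLK15 on the strand of the gene and, read on the opposite strand, in KLK2 and KLK3, compared with 10.8% of all windows. The forkhead motifs TGTTTAC and TATTTAC (2.98% and 2.4% of windows) were not found in the 4 windows, and KLK4 held none of the motifs searched. The KLK2 and KLK3 windows were 89.5% identical over 219 aligned bases, and the other pairs 57.7% to 65.1%. A match describes letters in a window and is not evidence of binding.

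The libraries held 19450866 to 22612046 estimated counts each, and values are given as CPM, counts scaled to a common library size, after TMM normalization, which adjusts library sizes for a few genes taking a large share. TMEFF2, the shRNA target, was lower on average in shTMEFF2 than in shScramble, at 63.2 ± 21.7 against 85.0 ± 16.0 CPM without DHT and 116 ± 26.0 against 153 ± 31.4 CPM with DHT (SD, n = 3 each), but the libraries of both lines overlapped at either condition. The difference, −0.43 (SE 0.25) and −0.41 (SE 0.25) on the log2 scale, was not past the threshold in edgeR's quasi-likelihood test (adjusted p = 0.5 and 0.3). The labels state that knockdown was checked after selection. The study also showed TMEFF2 mRNA in LNCaP cells with its TMEFF2 shRNAs or the control, with and without DHT, and followed TMEFF2 protein by Western blot. None of these was analysed here. All 8 luminal prostate markers summarised here were above 1 CPM in every group, and the basal marker KRT5 was at 0 counts in the 12 libraries. The summed luminal markers, several of which respond to androgen, were 6223 to 6502 CPM in shScramble DHT-, 6433 to 7575 in shScramble DHT+, 5241 to 5702 in shTMEFF2 DHT- and 4547 to 4851 in shTMEFF2 DHT+. Of the markers of other cell types, the 3 basal markers summed to at most 0.136, 1.77, 0.240 and 0.502 CPM in these groups. Within them KRT14 was at 0 to 1 counts in a library of shScramble DHT- and 15 to 29 in shScramble DHT+ (edgeR's adjusted p = 0.0022), and was lower in shTMEFF2 with DHT, at 0 to 9 counts (edgeR's adjusted p = 0.025). This last call was not made by DESeq2 (−2.65). It was also lost without shScramble DHT+ replicate 1 or without shTMEFF2 DHT+ replicate 1 or 3. The 3 neuroendocrine markers summed to 73.2 to 109, 35.4 to 68.5, 53.6 to 57.7 and 37.4 to 47.8 CPM, nearly all of it ENO2, an enolase also expressed outside neuroendocrine cells, while CHGA had at most 3 counts. ENO2 fell with DHT in shScramble (−0.93, SE 0.23, edgeR's adjusted p = 0.0089). The 3 stromal markers summed to 19.1 to 19.8, 12.2 to 13.2, 21.7 to 31.2 and 14.9 to 17.8 CPM, mostly COL1A1, a collagen chain, which fell with DHT in shScramble (−0.61, SE 0.13, edgeR's adjusted p = 0.0034) and in shTMEFF2 (−0.68, SE 0.12, edgeR's adjusted p = 0.0044). Those calls of COL1A1 were under the fold limit without shScramble DHT+ replicate 2 (−0.58) and without shTMEFF2 DHT- replicate 1 (−0.53). The endothelial marker PECAM1 and the leukocyte marker PTPRC summed to 5.63 to 6.34, 4.15 to 4.55, 6.68 to 9.37 and 5.25 to 7.32 CPM. PTPRC fell with DHT in shScramble (−0.59, SE 0.19, edgeR's adjusted p = 0.034) and was higher in shTMEFF2 with DHT (0.65, SE 0.19, edgeR's adjusted p = 0.033), and it lost the first call without shScramble DHT- replicate 1 or 3 or any library of shScramble DHT+ (−0.64 to −0.51), and the second without any library of shScramble DHT+ or without shTMEFF2 DHT+ replicate 1 or 2 (0.45 to 0.71). The part of these shifts, which fall in the same comparisons as those of the kallikreins, in the kallikrein results was not tested. In bulk RNA, fewer cells that express a gene and less of its RNA per cell cannot be told apart.

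KLK3, which encodes PSA, was the member with the highest level in all groups. Its levels in replicates 1, 2 and 3 were 1921, 1953 and 1900 CPM in shScramble DHT- and 7529, 7219 and 7737 CPM in shScramble DHT+. In shTMEFF2 they were 305, 255 and 509 CPM without DHT and 1452, 1921 and 2474 CPM with DHT. The 4 groups separated with the exception of shTMEFF2 DHT+, whose libraries spread around those of shScramble DHT-. The KLK3 level of shTMEFF2 cells under androgen (1949 ± 511 CPM, SD, n = 3) thus overlapped that of control cells without it (1925 ± 26.5 CPM, SD, n = 3). The fitted log2 difference between the lines was −2.43 (SE 0.23) without DHT, a 5.40-fold lower level, and −1.94 (SE 0.22) with DHT, 3.85-fold lower. DHT against vehicle gave 1.96 (SE 0.22) in shScramble and 2.45 (SE 0.23) in shTMEFF2. The libraries of shTMEFF2 also spread more, with a coefficient of variation of 37.7% and 26.2% compared with 1.38% and 3.48% in shScramble. In shTMEFF2 DHT-, replicate 3 was 1.99 times replicate 2. Without that replicate 3, the log2 difference between the lines without DHT was −2.77 and the DHT response of shTMEFF2 was 2.81.

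KLK2, the protease that can activate pro-PSA, had the largest fitted differences of the 5 in the 4 comparisons of groups. It stood at 270, 219 and 266 CPM in shScramble DHT- and at 1517, 1272 and 1512 CPM in shScramble DHT+. In shTMEFF2 it stood at 33.1, 20.7 and 44.2 CPM without DHT and at 182, 218 and 283 CPM with DHT. As for KLK3, only shScramble DHT- and shTMEFF2 DHT+ overlapped. Between shTMEFF2 DHT- and shScramble DHT+ the mean levels were 32.7 ± 11.7 and 1433 ± 140 CPM (SD, n = 3 each), a ratio of 43.9 for KLK2 and of 21.0 for KLK3. The log2 difference between the lines was −2.95 (SE 0.23) without DHT and −2.65 (SE 0.23) with DHT, which are 7.71-fold and 6.30-fold lower levels. DHT against vehicle gave 2.51 (SE 0.23), or 5.70-fold, in shScramble and 2.80 (SE 0.23), or 6.97-fold, in shTMEFF2. Leaving out each library in turn kept these values between −3.22 and −2.70, −2.83 and −2.52, 2.42 and 2.59, and 2.56 and 3.09.

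**Figure D1:**
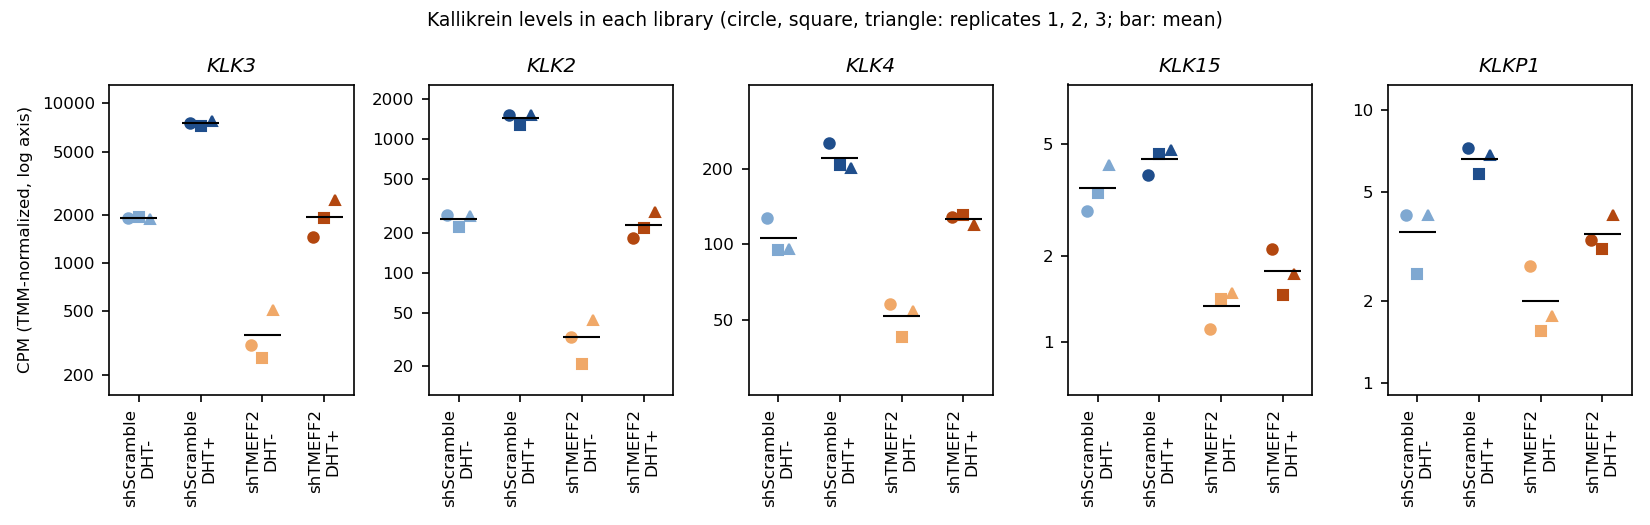
TMM-normalized CPM (log axis, a separate scale for each gene) of the 5 kallikreins in the 12 libraries by group, with replicates 1 to 3 as circle, square and triangle and the group mean as a bar. KLK3 and KLK2 of shTMEFF2 DHT+ (1452 to 2474 and 182 to 283 CPM) lie around shScramble DHT- (1900 to 1953 and 219 to 270 CPM), while KLK15 shows overlapping DHT- and DHT+ libraries within each line.

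KLK4, a trypsin-like kallikrein also known for its part in tooth enamel formation, moved over a narrower range. Its levels were 127, 95.3 and 95.6 CPM in shScramble DHT-, 254, 208 and 201 CPM in shScramble DHT+, 58.0, 43.1 and 54.4 CPM in shTMEFF2 DHT- and 128, 131 and 119 CPM in shTMEFF2 DHT+. All groups were separate except that shScramble DHT- overlapped shTMEFF2 DHT+. The log2 difference between the lines was −1.03 (SE 0.14) without DHT and −0.81 (SE 0.13) with DHT. DHT against vehicle gave 1.06 (SE 0.13) in shScramble and 1.28 (SE 0.14) in shTMEFF2, a 2.08-fold and 2.44-fold higher level. Its spread between replicates was the smallest of the members (residual SD 0.191 on the log2 scale, compared with 0.227 to 0.337 for the others).

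KLK15 was low, with 23 to 95 estimated counts in a library. It had 2.90, 3.34 and 4.21 CPM in shScramble DHT- and 3.89, 4.59 and 4.75 CPM in shScramble DHT+. In shTMEFF2 it had 1.11, 1.42 and 1.49 CPM without DHT and 2.13, 1.46 and 1.74 CPM with DHT. Unlike the other 4 members, it separated by line alone: every shScramble library was above every shTMEFF2 library, whereas DHT- and DHT+ overlapped within each line. The log2 difference between the lines was −1.38 (SE 0.23) without DHT and −1.31 (SE 0.22) with DHT. DHT against vehicle gave 0.34 (SE 0.21) and 0.41 (SE 0.23), with intervals of 2 SE from −0.08 to 0.76 in shScramble and from −0.06 to 0.87 in shTMEFF2. At this depth a DHT response of KLK15 was not separable from the spread between replicates, and responses up to the upper bounds were not detectable as such.

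KLKP1, the pseudogene between KLK2 and KLK4, held 35 to 144 counts in a library. The symbol stands for 2 gene IDs in GENCODE v44, so its position and identity in the table are less certain than those of the others. Its levels were 4.12, 2.52 and 4.11 CPM in shScramble DHT-, 7.27, 5.81 and 6.80 CPM in shScramble DHT+, 2.69, 1.55 and 1.76 CPM in shTMEFF2 DHT- and 3.33, 3.10 and 4.14 CPM in shTMEFF2 DHT+. The DHT+ libraries stood above the DHT- libraries in both lines, and with DHT the lines did not overlap. Without DHT, replicate 1 of shTMEFF2 lay above replicate 2 of shScramble. The log2 difference between the lines was −0.84 (SE 0.25) without DHT and −0.91 (SE 0.24) with DHT, and DHT against vehicle gave 0.88 (SE 0.24) and 0.82 (SE 0.25). The value of −0.84 was −0.46 from the first of the deposited columns of each library and −1.29 from the second.

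In each comparison a call needed a 1.5-fold difference and an adjusted p no higher than 0.05 (edgeR, Benjamini-Hochberg over 15419 genes), and all 5 members passed the filter on low counts. With DHT against vehicle in shScramble, 4 of the 5 were called higher, all but KLK15, in a comparison where 5.45% of all genes tested were called higher and 6.45% lower. In shTMEFF2, KLK2, KLK3 and KLK4 were called higher, against 3.28% of all genes, and KLKP1 (0.82) was called too under 4 of 18 alternatives, with DESeq2 (0.83) and without shTMEFF2 DHT- replicate 1 (1.09) or shScramble DHT- replicate 2 among them. Between the lines without DHT, KLK2, KLK3, KLK4 and KLK15 were called lower, against 0.272% of all genes, and with DHT all 5 were called lower, against 3.74% (3.03% were called higher). The members were chosen from these very contrasts, so nothing is read from these counts. The median log2 difference of the members was 1.06, 1.28, −1.38 and −1.31 in the 4 comparisons, where that of all genes tested lay between −0.021 and 0.004. The calls of KLK2, KLK3 and KLK4 were made under all 19 alternatives. That of KLK15 without DHT was made under 15 of 18 and was lost without shTMEFF2 DHT- replicate 1 (−1.26), without shTMEFF2 DHT- replicate 2 (−1.42) and from the first column of each library. Those of KLKP1 were made under 15 of 18 alternatives for DHT in shScramble, where they were lost without shScramble DHT- replicate 2 (0.69), without shScramble DHT+ replicate 1 (0.81) and from the second column. Between the lines with DHT the call of KLKP1 was made under 13 of 18, and was lost without shScramble DHT+ replicate 1 or 3, without shTMEFF2 DHT+ replicate 1 or 2 (−0.89 to −0.81), and from the first column (−0.77).

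The DHT responses of both lines were then set against each other. The difference of the log2 responses, shTMEFF2 minus shScramble, was 0.49 (SE 0.30) for KLK3, 0.29 (SE 0.31) for KLK2, 0.23 (SE 0.19) for KLK4, 0.07 (SE 0.31) for KLK15 and −0.06 (SE 0.35) for KLKP1. The interval of 2 SE was −0.12 to 1.10 for KLK3, −0.32 to 0.90 for KLK2 and −0.15 to 0.60 for KLK4, so values from a somewhat smaller to a larger response in shTMEFF2 lie within the spread between libraries. At an adjusted p of at most 0.05, 0 of the 5 were called, in a comparison where 4.94% of all genes were called (1.65% higher and 3.29% lower), and 0 were called by DESeq2 or had an unadjusted p under 0.05 in edgeR. Without shTMEFF2 DHT- replicate 3 the difference for KLK3 was 0.84 and 1 of the 5, KLK3, was called. The levels without DHT, by which KLK2, KLK3 and KLK4 were picked, enter this difference, so nothing is read from these counts.

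**Figure D2:**
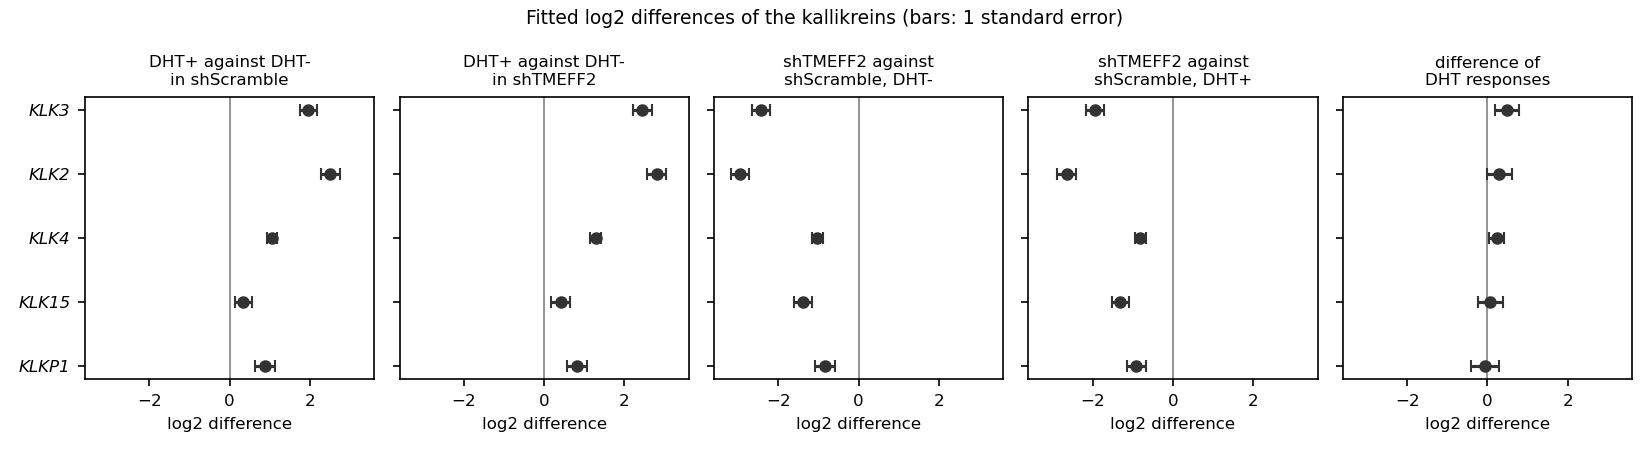
Fitted log2 differences (x axis) of the 5 kallikreins in the 4 comparisons of groups and for the difference of the DHT responses, shTMEFF2 minus shScramble, with bars of 1 standard error. KLK2 and KLK3 lie farthest from 0 in both directions, from −2.95 to 2.80 for KLK2, and the differences of the responses lie between −0.06 and 0.49.

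The proportions among the members were not constant. Within a library, KLK2 had 13.1 ± 1.62 counts per 100 of KLK3 in shScramble DHT- and 19.1 ± 1.32 in shScramble DHT+, and 9.22 ± 1.43 and 11.8 ± 0.647 in the shTMEFF2 groups without and with DHT (SD, n = 3 each). The DHT+ libraries had more KLK2 per KLK3 than the DHT- libraries in both lines, without overlap (17.6 to 20.2 against 11.2 to 14.1, and 11.3 to 12.5 against 8.13 to 10.8). KLK4 went the other way, with 5.51 ± 0.956 counts per 100 of KLK3 in shScramble DHT- and 2.95 ± 0.395 with DHT, and 15.5 ± 4.31 and 6.83 ± 1.99 in shTMEFF2. KLKP1 kept close to KLK4, which lies 10.0 kb from it, although KLK2 is nearer, at 1.5 kb. It had 3.40 ± 0.819, 3.02 ± 0.317, 3.81 ± 0.724 and 2.82 ± 0.579 counts per 100 of KLK4 in shScramble DHT-, shScramble DHT+, shTMEFF2 DHT- and shTMEFF2 DHT+, and these groups overlapped. The share of a library's counts that fell to the 5 genes together was 0.228% to 0.235% in shScramble DHT-, 0.850% to 0.920% in shScramble DHT+, 0.0321% to 0.0615% in shTMEFF2 DHT- and 0.178% to 0.291% in shTMEFF2 DHT+.

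**Figure D3:**
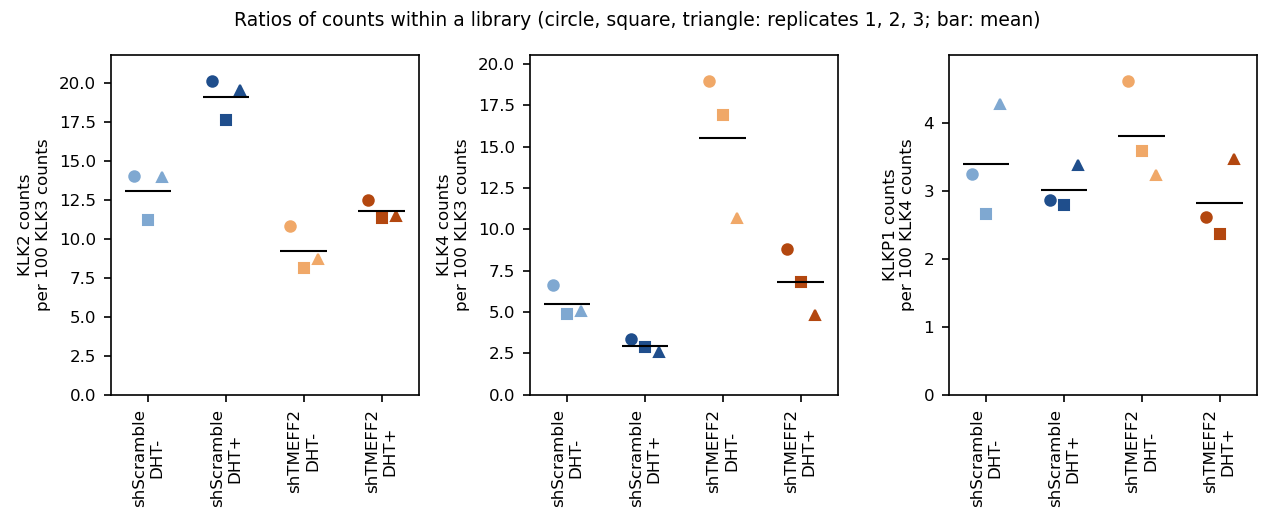
Ratios of estimated counts within each library, by group, with replicates 1 to 3 as circle, square and triangle and the mean as a bar. KLK2 per 100 KLK3 counts is highest in shScramble DHT+ (17.6 to 20.2), KLK4 per 100 KLK3 counts is highest in shTMEFF2 DHT- (10.7 to 19), and KLKP1 per 100 KLK4 counts overlaps across the groups.

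Levels of different genes were compared per length, as CPM per kb of the canonical transcript (KLKP1 was left out, its symbol being ambiguous). KLK3 was highest in every group, at 1315 ± 18.1, 5119 ± 178, 243 ± 91.7 and 1331 ± 349 CPM per kb in shScramble DHT-, shScramble DHT+, shTMEFF2 DHT- and shTMEFF2 DHT+ (SD, n = 3 each). KLK15 was lowest, at 0.984 to 3.25 CPM per kb on average. The middle places changed. In shScramble DHT+, KLK2 (507 ± 49.5 CPM per kb) was above KLK4 (156 ± 20.5), whereas in shTMEFF2 DHT- KLK4 (36.6 ± 5.50) was above KLK2 (11.5 ± 4.15), in each case without overlap of the libraries. In shScramble DHT- and in shTMEFF2 DHT+ these 2 genes overlapped (77.4 to 95.4 against 67.3 to 89.6, and 64.2 to 100.1 against 84.4 to 92.7 CPM per kb). The canonical KLK2 transcript (2.829 kb) is longer than that of KLK4 (1.416 kb), and a shorter KLK2 isoform would raise all 4 values of KLK2 by the same factor.

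The transcription cofactors and partner factors that act with androgen signalling in prostate cells were read from a list of 15 genes, all of which were tested. GRHL2, a grainyhead transcription factor, rose with DHT in shScramble (0.73, edgeR's adjusted p = 0.0031) and was lower in shTMEFF2 with DHT (−0.63, edgeR's adjusted p = 0.013). From the second column of each library alone these values were 0.48 and −0.19 and not called, and the latter was not called either without shScramble DHT+ replicate 1 (−0.57) or without shTMEFF2 DHT+ replicate 3 (−0.50). GRHL2 was the 1 gene of the 15 called in either comparison, where 11.9% and 6.77% of all genes were called. With DHT in shTMEFF2, and between the lines without DHT, 0 of the 15 were called by edgeR or DESeq2 (4.88% and 0.571% of all genes were called). Of the 15, 4 and 3 had an unadjusted p under 0.05 in edgeR, a looser limit for which no share of all genes is given. The pioneer factors FOXA1 and GATA2, the homeobox factor HOXB13 and the coregulators NCOA1, NCOA2, NCOA3, EP300, CREBBP and NCOR1 were not called in the 4 comparisons of groups. Several had small differences that passed the adjusted p and missed the fold limit. With DHT in shScramble these were CREBBP (−0.56), NCOA1 (−0.48), GATA2 (−0.46), HOXB13 (−0.36) and NCOA2 (−0.26), with edgeR's adjusted p of 0.00083, 0.00015, 0.0083, 0.0029 and 0.023. In that comparison 7 of the 15 had an unadjusted p under 0.05 in edgeR, again with no share of all genes given at that limit.

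The other luminal markers did not all share the pattern of KLK2 and KLK3 between the lines without DHT. ACPP, prostatic acid phosphatase, was the 1 of the 8 called lower there, where 0.272% of all genes were, at 350 ± 53.5 against 649.7 ± 88.95 CPM (SD, n = 3 each, −0.89, SE 0.12, edgeR's adjusted p = 0.0045), and unlike KLK2 and KLK3 it fell with DHT in shScramble (−1.07, SE 0.12, edgeR's adjusted p = 4.6e-05). SLC45A3 (prostein) had a log2 difference of −0.35 (SE 0.11, edgeR's adjusted p = 0.18) and TMPRSS2, a membrane serine protease, one of 0.05 (SE 0.46, edgeR's adjusted p = 0.98), and neither passed the test. The value of TMPRSS2 depended on the processing. It lay between −1.04 and 0.79 over the 19 alternatives, 0 of which called it, and between −0.17 and 0.34 with a library left out. With DHT, in contrast, 5 of the 8 were called lower in shTMEFF2 than in shScramble, against 3.74% of all genes: TMPRSS2 (−2.22), SLC45A3 (−1.73), the luminal keratins KRT8 (−1.36) and KRT18 (−1.12), and ACPP (−0.60), which was under the fold limit without shScramble DHT+ replicate 1 (−0.50) or shTMEFF2 DHT+ replicate 3 (−0.52). The median of the 8 was −0.86 there and −0.13 without DHT, beside −1.31 and −1.38 for the kallikreins. The kallikreins were picked with their levels in these libraries known, and KLK2, KLK3 and KLK4 for being lower in shTMEFF2 without DHT. Nothing is therefore read from the gap in either condition. TMPRSS2 rose with DHT in shScramble (2.97, SE 0.50, edgeR's adjusted p = 0.00074), and its libraries spread widely, from 800 to 1735 CPM there and from 110 to 449 CPM in shTMEFF2 DHT+.

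**Figure D4:**
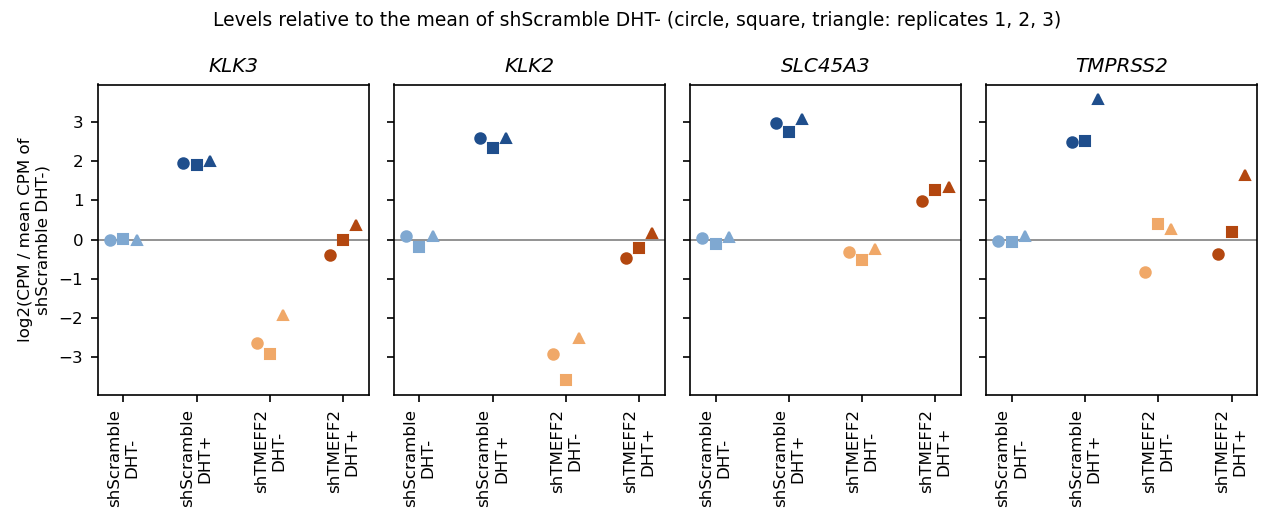
Log2 of the CPM of each library relative to the mean of shScramble DHT- for KLK3, KLK2, SLC45A3 and TMPRSS2, by group, with replicates 1 to 3 as circle, square and triangle. In shTMEFF2 DHT-, KLK3 and KLK2 (255 to 509 and 20.7 to 44.2 CPM) lie farther below the line of 0 than SLC45A3 (48.7 to 59.2 CPM), and TMPRSS2 (79.9 to 189 CPM) lies on both sides of it. KLK3 and KLK2 were picked for being lower in that group.

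The list of proteases, inhibitors, substrates and receptors linked to kallikreins held 22 genes, of which 16 were tested. With DHT in shScramble, TMPRSS2, SERPINA3 and F2RL1 rose and FN1 fell, 4 of the 16 (11.9% of all genes tested were called). SERPINA3, the serpin antichymotrypsin that binds PSA in serum, rose by 1.31 (SE 0.33, edgeR's adjusted p = 0.011), but it had only 7 to 24 counts in a library over all 12 libraries. F2RL1, the protease-activated receptor PAR2, rose by 0.68 (SE 0.15, edgeR's adjusted p = 0.0042), which was 0.55 and under the fold limit without shScramble DHT+ replicate 3. FN1, fibronectin, fell by 0.90 (SE 0.27, edgeR's adjusted p = 0.025), a call lost without shScramble DHT- replicate 1 (−0.72), shScramble DHT+ replicate 2 (−0.85) or shScramble DHT+ replicate 3 (−0.77). In shTMEFF2, 0 of the 16 were called with DHT by edgeR or DESeq2 (4.88% of all genes were called). Between the lines without DHT, edgeR called 0 of the 16 (0.571% of all genes were called) and DESeq2 1, IGFBP3. In these 2 comparisons 4 and 5 of the 16 had an unadjusted p under 0.05 in edgeR, a looser limit for which no share of all genes is given. With DHT, FN1 was higher in shTMEFF2 than in shScramble (1.28, SE 0.27, edgeR's adjusted p = 0.0066), and TMPRSS2 (−2.22, SE 0.48, edgeR's adjusted p = 0.0075) and HPN (hepsin, −0.62, SE 0.10, edgeR's adjusted p = 0.0013) were lower, the last of these under the fold limit without shScramble DHT+ replicate 1 (−0.58) or replicate 3 (−0.53). The seminal substrates SEMG1 and SEMG2 had at most 2 and 3 counts in a library, close to the limit that these depths can show.

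The other 11 tissue kallikreins lie in the same cluster and had low counts, at most 26 in a library. KLK14 had 7 to 26 counts, KLK11 0 to 13 and KLK10 3 to 8. KLK1, 1.5 kb to the left of KLK15, had at most 8 counts in a library, and KLK5, 31.9 kb to the right of KLK4, at most 1. KLK8 and KLK9 were at 0 counts in the 12 libraries, which allows up to 3 counts in each (counting error only). KLK14 alone passed the filter, and it was not called in any comparison by edgeR or DESeq2, nor was its unadjusted p under 0.05 (log2 differences −0.71 to 0.27).

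The genes around the members were examined next. Within 500 kb of the 5 members, 50 of 89 annotated genes had a row and 21 were tested, KLK14 among them. With DHT in shScramble, 1 of the 21 was called, C19orf48 (now C19orf48P), 20.4 kb to the left of KLK15, where 11.9% of all genes were called. It rose from 155 ± 5.59 to 318 ± 18.8 CPM (SD, n = 3 each, 1.03, SE 0.11, edgeR's adjusted p = 2.3e-05), and in shTMEFF2 from 127 ± 22.3 to 230 ± 22.1 CPM (0.86, SE 0.11, edgeR's adjusted p = 0.00076). Between the lines it differed by −0.30 (SE 0.11, edgeR's adjusted p = 0.25) without DHT and −0.47 (SE 0.11, edgeR's adjusted p = 0.012, under the fold limit) with DHT. In shTMEFF2, 2 of the 21 were called with DHT, C19orf48 and POLD1, where 4.88% of all genes were called. POLD1, a DNA polymerase subunit 407.3 kb away, rose by 0.67 (SE 0.13, edgeR's adjusted p = 0.0063), and it lost the call without shTMEFF2 DHT- replicate 1 (0.55). Between the lines without DHT, 0 of the 21 were called by edgeR or DESeq2, against 0.571% of all genes called (median log2 difference −0.06, range −0.94 to 0.26). Of the 21, 4 had an unadjusted p under 0.05 in edgeR, a looser limit for which no share of all genes is given. The 5 members lay between −2.95 and −0.84 there, but they were picked with these levels known, so nothing is read from that gap. With DHT, 1 of the 21 was called between the lines, where 6.77% of all genes were called. This was VSIG10L, 420.1 kb to the right of KLK4, which was lower (−0.64, SE 0.14, edgeR's adjusted p = 0.009). It was under the fold limit with library size only (−0.58) and from the first column of each library (−0.57).

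**Figure D5:**
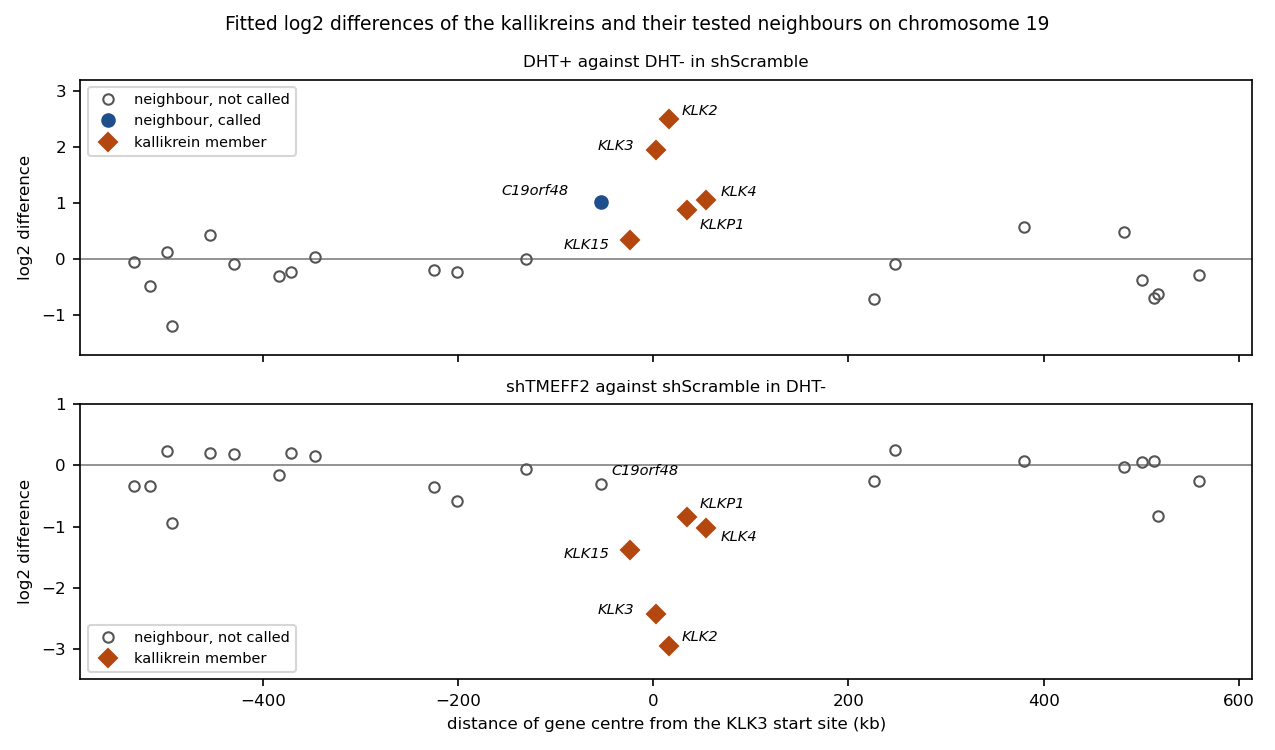
Fitted log2 difference (y axis) of the 5 kallikreins (diamonds) and of the 21 tested genes within 500 kb of them (circles, filled where called) by the distance in kb of the gene centre from the KLK3 start site, for DHT in shScramble (top) and for shTMEFF2 against shScramble without DHT (bottom). C19orf48 at 1.03 is the called neighbour in the top panel, and in the bottom panel the 21 neighbours lie between −0.94 and 0.26. The kallikreins were picked with their levels known.

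Likeness of pattern was measured as the root mean square difference of 2 genes' log2 CPM over the 12 libraries, each centred on its own mean. Among 15418 other genes, KLK2 and KLK3 were each other's nearest, at 0.40. Both were picked for being lower in shTMEFF2 without DHT and could exchange a small part of their reads, so nothing is read from this. The 3 genes nearest to each outside the members included GRPR, the gastrin-releasing peptide receptor (0.81 for KLK2 and 0.59 for KLK3), with TRPM8, a cold-activated cation channel, for KLK2 (0.89) and TM4SF18 for KLK3 (0.62). TM4SF18 had only 0 to 13 counts per library in shTMEFF2 DHT-, so its place is uncertain. GRPR had 2.61 ± 0.912 CPM in shScramble DHT- and 0.382 ± 0.0997 in shTMEFF2 DHT- (SD, n = 3 each), a log2 difference of −2.75 (SE 0.37) that rests on 6 to 11 counts per library in the latter. The nearest genes were found by likeness to the members in these same libraries, so nothing is read from their differences. TRPM8 rose from 4.45 ± 1.34 to 36.2 ± 2.35 CPM with DHT in shScramble and from 2.13 ± 0.00994 to 13.6 ± 2.71 CPM in shTMEFF2. KLK4 was nearest to GLYATL1P2 (0.24), GPR158, a G protein-coupled receptor (0.25), and AADAT, an aminotransferase (0.26), and KLKP1 was the fifth nearest gene to it (0.28). KLK15 was nearest to REPS2 (0.23), PRDM9 (0.25) and LINC01619 (0.28). KLKP1 was nearest to C1QTNF9, PTPRJ, a receptor tyrosine phosphatase, and PLPP3, a lipid phosphatase (0.25 each). PRDM9 and C1QTNF9 were low too, each with 8 to 10 counts per library in shTMEFF2 DHT-. KLK2 and KLK3 varied more than the rest, by a root mean square of 1.97 and 1.60 around their own means compared with 0.66 to 0.76 for KLK4, KLK15 and KLKP1, so the distances are compared within 1 member only. KLK15 and KLK3, neighbours across 17.7 kb, differed by 1.10, which puts KLK15 in place 138 of 15418 seen from KLK3, but KLK3 in place 14415 seen from KLK15, whose own range is narrow.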

How the data were processed

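RNA was measured by 75 bp paired-end RNA-seq in 12 LNCaP libraries, 3 in each of 4 groups given by the labels. The authors checked reads with FastQC, removed contaminants, trimmed with Trimmomatic and ran kallisto 0.42.3 against GRCh38 transcripts, and the values they deposited are estimated counts per gene symbol, scaled by library size and transcript length. A change of isoform alone therefore moves a count little, and paralogs can exchange reads. The table has 24 columns, 2 per library, which were taken as repeat runs because their names differ by a suffix (the labels do not say so), summed to 12 and rounded (19450866 to 22612046 counts per library).

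Counts were fitted in R 4.3.3 with edgeR 4.0.16 over all 12 libraries with 1 coefficient per group: filterByExpr (minimum count 10, minimum total count 15, 15419 genes), TMM (factors 0.955 to 1.037), quasi-likelihood tests and Benjamini-Hochberg adjustment over all genes. Genes were called at 1.5-fold and an adjusted p of at most 0.05, and differences of DHT responses on the adjusted p alone. Standard errors are the log2 difference divided by the square root of the F statistic. Likeness used log2 CPM with a prior count of 2. The p-values measure the spread between the repeats, which share 2 transductions. The procedure was tested on simulated counts. The named genes are the members, TMEFF2, listed genes called in a comparison, neighbours and the 3 nearest genes of each member by likeness. IGFBP3 and the genes named as not called were named after their values were seen. Some listed or nearest genes are not reported here and are left out of list counts and marker sums, though not of the fit. The members and lists were chosen with earlier results of these data known. Alternatives were DESeq2 1.42.0, no filter, a filter at a mean above 5 CPM, library size only, either column of each library, the replicate number as a block and each library left out. Neighbours, lengths and sequence identities used GENCODE v44, and promoters RefSeq, where 4 of the 5 members had an entry.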

Additional observations from a re-analysis of the deposited data

Results flagged for a closer look

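Of 65 listed genes tested other than the members, TMEFF2 included, 5 (7.69%) had log2 DHT responses that differed between the lines (shTMEFF2 minus shScramble, edgeR's quasi-likelihood test of the interaction, adjusted over 15419 genes), where 4.94% of all genes did (1.65% higher and 3.29% lower). Of the 8 luminal markers, 4 were among them. That of the coactivator NCOA1 differed by 0.55 (SE 0.09, adjusted p = 0.005 in edgeR), a call made under all 19 alternatives (0.49 to 0.61). The NCOA1 response was −0.48 in shScramble and 0.06 in shTMEFF2. Among luminal markers, KRT8 differed by −1.49, KRT18 by −1.07 and SLC45A3 by −1.38 (adjusted p = 8.4e-05, 8.6e-05 and 0.00051 in edgeR), and FOLH1, which encodes prostate-specific membrane antigen, by 0.50 (adjusted p = 0.00087 in edgeR). FOLH1 was lower with DHT in both lines (−0.88 in shScramble and −0.38, under the fold limit, in shTMEFF2), so its positive difference is a smaller fall. KRT8 and KRT18, keratins of luminal cells, rose with DHT in shScramble from 448 ± 19.3 to 1138 ± 116 CPM and from 354 ± 18.1 to 777 ± 43.6 CPM, and in shTMEFF2 they were 492 ± 46.0 and 444 ± 42.2 CPM and 341 ± 21.7 and 356 ± 19.6 CPM without and with DHT (SD, n = 3 each). None of the 5 kallikreins was among the genes called in this way when all 12 libraries were used. Nothing is read from that, because they were picked by levels that enter this difference.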

How the results depend on the processing

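KLK2, KLK3 and KLK4 kept their direction and calls under all 19 alternatives in the 4 comparisons of groups, and no member's direction reversed there. With the filter at a mean above 5 CPM, which removes KLK15 and KLKP1, the median over the members left was 1.94 and 2.45 for DHT in shScramble and shTMEFF2, and −2.43 and −1.92 between the lines without and with DHT. The count of all genes called moved most between the lines without DHT, from 88 to 180 with DESeq2, 157 with no filter, 46 and 50 from the first and second column of each library, and 32 to 117 with a library left out, the lowest without shScramble DHT- replicate 1 and also under 50 without shScramble DHT- replicate 2 or shTMEFF2 DHT- replicate 1 or 2. For DHT in shTMEFF2 it was 753, and 466 to 902 with a library left out, the lowest without shTMEFF2 DHT+ replicate 3. For the difference of responses it was 761, with 1205 from DESeq2, 494 from the second column and 465 to 765 with a library left out, the lowest without shScramble DHT- replicate 2. The cause was not tested.

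With the replicate number as a block, 144 genes were called between the lines without DHT, and the other counts stayed within 1.5 times. Among the members the block added the call of KLKP1 for DHT in shTMEFF2 (0.83). The labels do not say that a number marks a shared transduction or day. Same-numbered libraries of different groups had deviations from their group means that correlated at 0 to 0.17 (3 of 18 pairs over 0.1), and 11 of 12 libraries correlated best with their own number, which is a hint from the data only. KLK15 and KLKP1, at 23 to 144 counts in a library, are limited most by depth.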
